A study of Mus musculus with 6 samples.

Results

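The genes described are those of the mouse MHC class II antigen presentation pathway: the chain genes H2-Aa, H2-Ab1 and H2-Eb1, the peptide loading genes H2-DMa, H2-DMb1 and H2-DMb2, their modulators H2-Oa and H2-Ob, the invariant chain gene Cd74, and Ciita, the class II transactivator. They were taken by name, and all 10 were found among the 23337 genes of the count table. An MHC class II molecule is a surface dimer of an alpha and a beta chain that shows peptides from endocytosed and lysosomal protein to CD4+ T cells. The invariant chain occupies the peptide groove during transport, H2-DM exchanges its remnant for peptide in the endosome, and H2-DO restrains H2-DM. The genes are switched on together by CIITA, which binds no DNA itself and is recruited by RFX, CREB and NF-Y proteins bound to the X and Y boxes of class II promoters. Class II is best known on B cells, dendritic cells and macrophages, and in acute myeloid leukaemia its level varies between patients and between states of one disease.

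The data were polyA RNA-seq read counts from sorted leukaemia initiating cells (LICs), cells that can start the leukaemia anew, with stem and progenitor cells of mouse blood formation named as the source. The adult group had 3 libraries (replicates 1, 2 and 4), the neonatal group likewise 3 (replicates 4, 7 and 8), and age is the only difference between the groups that the labels give. The labels give no driver of the leukaemia, strain, sex, exact age or sort gate, nor what limits these cells as a model. Nothing in them states that each replicate was a different mouse, so a p-value here covers just the spread among these libraries, which may be technical.

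Neonatal replicate 4 stood apart by depth: it held 3932833 counts, and the other 5 libraries held 16.2 times as many on average (60113466 to 66132051). The limit that a count of 0 allows, 3 counts, was 0.897 CPM (counts divided by TMM-scaled library size) in that library and 0.0425 to 0.0502 CPM in the others. Tests were therefore run on all 6 libraries and on the 5 without neonatal replicate 4. Depth was not the only difference of that library. The transporter gene Tap2 had 137 counts in it, against 2205 and 1955 at the levels of neonatal replicates 7 and 8. H2-Ab1 had 162 counts, against 160 and 131. Eif2s3y, a Y-linked gene, was at 125 to 154 CPM in the adult libraries and had 0 counts in the neonatal ones, so sex and age group cannot be told apart. In these bulk samples fewer cells of a type and less RNA per cell cannot be told apart either.

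Short stretches of 6 class II promoters show the elements through which CIITA acts. They come from RefSeq on build GRCm38.p6, read 5′ to 3′ on the gene's strand, with capitals marking the AAC of the X box (usually part of GCAAC) and the GATTGG of the Y box, the NF-Y site. They are shown because the 6 genes share this arrangement and yet differed widely in level in the same libraries.
H2-Aa: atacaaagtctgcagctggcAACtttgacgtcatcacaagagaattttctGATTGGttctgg
H2-Eb1: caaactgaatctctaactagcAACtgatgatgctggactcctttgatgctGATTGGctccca
H2-DMb1: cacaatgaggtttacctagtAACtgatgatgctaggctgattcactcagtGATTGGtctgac
H2-DMb2: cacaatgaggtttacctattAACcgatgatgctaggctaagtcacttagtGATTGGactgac
H2-Oa: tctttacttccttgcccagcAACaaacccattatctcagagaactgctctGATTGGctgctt
H2-Ob: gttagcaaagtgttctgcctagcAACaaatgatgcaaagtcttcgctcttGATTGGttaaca

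These stretches lie at chr17:34287861-34287922 (H2-Aa, minus strand), chr17:34305757-34305818 (H2-Eb1), chr17:34153079-34153140 (H2-DMb1), chr17:34145108-34145169 (H2-DMb2), chr17:34092285-34092346 (H2-Oa) and chr17:34238797-34238858 (H2-Ob), the last 5 on the plus strand. GATTGG lay 38 bases (H2-Oa) to 85 bases (H2-DMb2) before the RefSeq start of the gene, and 24 to 27 bases separated it from the AAC. On both strands of 32851 RefSeq promoter windows, counting the 250 bases before each start, GATTGG was found in 14.6% and in all 6 of these members. GCAAC followed by GATTGG after 10 to 40 bases on the same strand was found in 0.435% of windows and in 4 of the 6, H2-Aa, H2-Eb1, H2-Oa and H2-Ob. The shorter AAC followed by GATTGG, which overlaps it, was found in 4.56% of windows and in all 6. AAC, any 2 bases and then ATGATG, a pattern chosen after these sequences were read, was found in 0.119% of windows and in H2-DMb1, H2-DMb2, H2-Eb1 and H2-Ob. TGACG, the core of a cyclic AMP response element, was found in 17.8% of windows and, of the 6, in H2-Aa. The stretches of H2-DMb1 and H2-DMb2 were identical at 56 of 62 bases. These matches are descriptions of letters in a window and not measured binding. H2-Ab1 and Ciita were not matched, and the RefSeq starts of H2-DMa lay 12839 and 10153 bases from the start in the count table, so its windows were not used.

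The mean level of each of the 10 members was higher in neonatal than in adult LICs, but few differences passed a test. With 6 libraries, edgeR's quasi-likelihood test with Benjamini-Hochberg adjustment over 13272 genes called 0 of the 9 members tested (7 genes or 0.0527% of all were called), with 4 of the 9 at an unadjusted p under 0.05, as were 11.9% of all genes. Every neonatal library lay above every adult library for 5 of the 10 members, H2-DMa, H2-DMb1, H2-DMb2, H2-Ab1 and H2-Oa, where 7.69% of all genes tested did so. All 9 tested members had a positive log2 fold change, neonatal minus adult, with a median of 1.60, beside 53.5% positive and a median of 0.05 over all genes.

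Without neonatal replicate 4, edgeR called 2 of the 10 members, H2-DMa and H2-Oa, both higher in neonatal LICs, where 5.98% of 13856 genes were called. An unadjusted p under 0.05 was reached by 7 of the 10 members and by 29.5% of all genes. Ciita passed the filter on low counts only through its neonatal libraries, which fixed its direction. Without it 6 of 9 members reached an unadjusted p under 0.05, and all 9 log2 fold changes were positive with a median of 1.82 (48.0% positive and a median of -0.05 over all genes). In these 5 libraries the groups did not overlap for 8 of the 10 members, with H2-Eb1 and Cd74 the exceptions, where 25.0% of all genes lay higher in every neonatal library. Ciita is among these 8, and passing the filter only through its neonatal libraries fixed this for it as well. DESeq2 called 3 of 9 members in 6 libraries, H2-Ab1, H2-DMa and H2-Oa, and 5.72% of all genes. In 5 libraries it called these 3 and H2-Aa, H2-DMb1 and Cd74, and 24.0% of all genes, and gave Ciita no adjusted p.

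**Figure D1:**
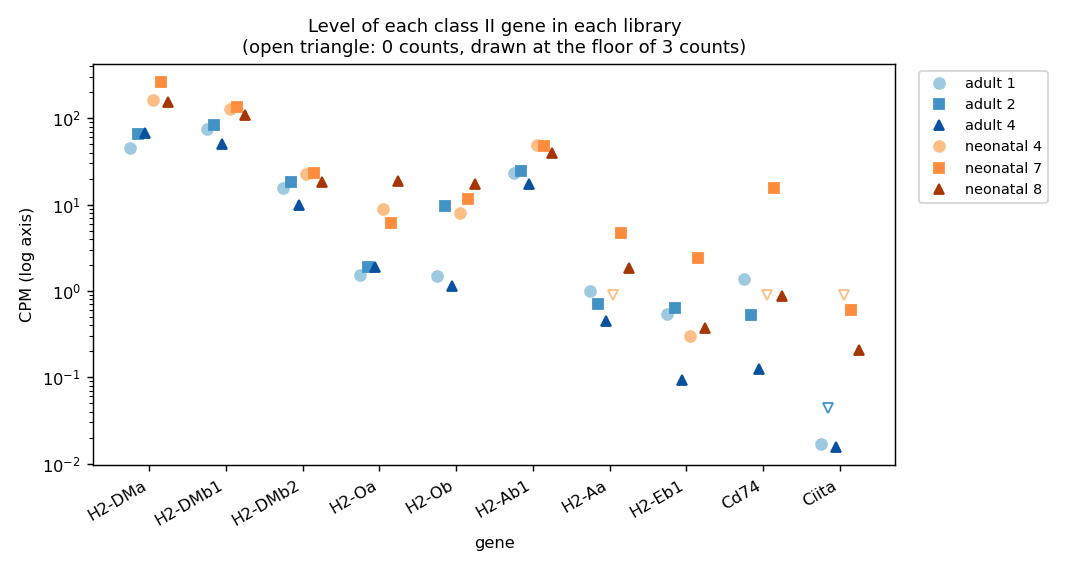
Level of each of the 10 class II genes in every library, in CPM on a log axis, with adult and neonatal libraries as separate point colours and counts of 0 drawn at the limit of 3 counts. H2-DMa, H2-DMb1 and H2-Ab1 lie highest in every library. Ciita lies lowest except in neonatal replicate 4, where Ciita, H2-Aa and Cd74 had 0 counts. Cd74 spans from 0 counts to 15.6 CPM within the neonatal group.

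Among the loading genes H2-DMa, the alpha chain of H2-DM, and H2-DMb1 had the highest mean levels per length of the 10 members. H2-DMa (chr17:34135671-34138535, mm10) was at 45.5, 65.5 and 67.5 CPM in the adult libraries (replicates 1, 2 and 4, the order used throughout). Its neonatal values were 162, 263 and 155 CPM (replicates 4, 7 and 8). The lowest neonatal library stood above the highest adult library by more than the whole adult range. Its difference on the log2 scale, neonatal minus adult, was 1.70 ± 0.34 (SE; edgeR adjusted p = 0.140) in 6 libraries and 1.82 ± 0.29 (edgeR adjusted p = 0.0361) in 5. H2-DMa thus rose in neonatal LICs in the 5 libraries. That call was lost when adult replicate 1, adult replicate 2, neonatal replicate 7 or neonatal replicate 8 was left out as well (edgeR adjusted p = 0.0947, 0.0835, 0.120 and 0.210), and was kept without adult replicate 4 (adjusted p = 0.0322). The range of its adjusted p over all 25 settings was 1.09e-06 to 0.405.

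H2-DMb1 (chr17:34153191-34160229), a beta chain of H2-DM, was at 74.5, 84.7 and 50.8 CPM in the adult and at 127, 135 and 110 CPM in the neonatal libraries. The 3 neonatal values lay close together and above all adult values. On the log2 scale the difference was 0.82 ± 0.30 (edgeR adjusted p = 0.340) in 6 libraries and 0.82 ± 0.25 (edgeR adjusted p = 0.0962) in 5.

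H2-DMb2 (chr17:34145416-34151095), the neighbouring second beta chain gene, was at 15.7, 18.2 and 9.80 CPM in the adult and at 22.4, 23.0 and 18.3 CPM in the neonatal libraries. Its highest adult and lowest neonatal libraries were nearly level. The log2 fold change of 0.54 ± 0.37 (edgeR adjusted p = 0.638) was the smallest of the 9 members tested in 6 libraries, and in 5 libraries it was 0.51 ± 0.34 (adjusted p = 0.361). Sequence of 75 bases, the read length, was shared with H2-DMb2 in 15.8% of the stretches of H2-DMb1's transcripts (254 of 1604, GENCODE M21), and with other genes, H2-DMb1 among them, in 16.2% of those of H2-DMb2. Reads of the beta chain genes could be split by the counting, so their separate values are uncertain to that extent.

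The H2-DO genes were lower. H2-Oa (chr17:34092379-34095234), the alpha chain of this modulator of H2-DM, was at 1.54, 1.92 and 1.90 CPM in the adult and at 8.97, 6.20 and 19.0 CPM in the neonatal libraries. The adult libraries agreed within a ratio of 1.25, whereas neonatal replicate 8 held 3.07 times the value of neonatal replicate 7. The difference of H2-Oa on the log2 scale was 2.68 ± 0.57 (edgeR adjusted p = 0.140) in 6 libraries and 2.83 ± 0.57 (edgeR adjusted p = 0.0453) in 5. H2-Oa thus rose in neonatal LICs in the 5 libraries. This call was also lost when adult replicate 1, adult replicate 2, neonatal replicate 7 or neonatal replicate 8 was left out as well (edgeR adjusted p = 0.106, 0.0970, 0.0907 and 0.308), and was kept without adult replicate 4 (adjusted p = 0.0491). Limma voom without neonatal replicate 4 gave an adjusted p of 0.0636. H2-Oa shares 200 exon bases with BC051537 on the opposite strand, and the counting used no strand option, but that gene itself had at most 11 counts in any library.

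H2-Ob (chr17:34238905-34245908), the H2-DO beta chain, was at 1.49, 9.58 and 1.14 CPM in the adult and at 8.07, 11.6 and 17.1 CPM in the neonatal libraries. Adult replicate 2 stood at 8.43 times the lowest adult library and above neonatal replicate 4. The fitted log2 difference was 1.60 ± 0.86 (edgeR adjusted p = 0.527) in 6 libraries and 1.83 ± 0.93 (edgeR adjusted p = 0.243) in 5. H2-Oa in that library was close to its value in adult replicate 4.

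The classical chain genes differed from each other. H2-Ab1 (chr17:34263227-34269418), the beta chain of I-A, was at 23.2, 24.7 and 17.4 CPM in the adult and at 48.4, 47.7 and 39.2 CPM in the neonatal libraries. The groups did not overlap and each was narrow, and neonatal replicate 4, the shallow library, lay beside neonatal replicate 7. Its log2 difference was 1.05 ± 0.31 (edgeR adjusted p = 0.228) in 6 libraries and 1.01 ± 0.25 (edgeR adjusted p = 0.0589) in 5, with an adjusted p of 0.00317 to 0.495 over all 25 settings.

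H2-Aa (chr17:34282751-34287771, minus strand), the alpha chain that pairs with H2-Ab1, was at 1.01, 0.699 and 0.452 CPM in the adult libraries. Neonatal replicate 4 held 0 counts of it, replicate 7 held 4.72 CPM and replicate 8 held 1.87 CPM. Neonatal replicates 7 and 8 lay above the adult libraries, and the limit of 0.897 CPM in neonatal replicate 4 lies above 2 of the 3 adult values, so its 0 counts do not show a level under theirs. At the level of neonatal replicate 7 or 8, neonatal replicate 4 would have held 15.8 or 6.24 counts, against the 0 found. For H2-Aa the log2 difference was 1.69 ± 1.09 (edgeR adjusted p = 0.611) in 6 libraries and 2.20 ± 0.72 (edgeR adjusted p = 0.105) in 5.

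H2-Eb1 (chr17:34305867-34316674), the beta chain of I-E, was at 0.536, 0.640 and 0.0935 CPM in the adult and at 0.299, 2.42 and 0.370 CPM in the neonatal libraries. Only neonatal replicate 7 stood above the adult range. The value in neonatal replicate 4 rests on 1 count, so its place against the adult range is uncertain. The log2 fold change was 1.72 ± 1.16 (edgeR adjusted p = 0.364) in 5 libraries. Its value of 1.37 ± 1.09 (edgeR adjusted p = 0.698) in 6 libraries turned to -0.29 when neonatal replicate 7 was left out.

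Cd74, the invariant chain gene on chromosome 18, was at 1.37, 0.521 and 0.125 CPM in the adult libraries. Its neonatal values were 0 counts in replicate 4, 15.6 CPM in replicate 7 and 0.874 CPM in replicate 8. Neonatal replicate 7 held 17.8 times the value of neonatal replicate 8, which itself lay inside the adult range. A library as shallow as neonatal replicate 4 would have held 52.2 counts at the level of neonatal replicate 7 and 2.92 at that of neonatal replicate 8. The second lies just under the limit of 3 counts that a count of 0 allows. The log2 difference of Cd74 was 3.07 ± 1.57 (edgeR adjusted p = 0.506) in 6 libraries and 3.62 ± 1.34 (edgeR adjusted p = 0.136) in 5. It was -0.32 without neonatal replicate 7 and 0.40 without neonatal replicates 4 and 7.

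Ciita, the transactivator on chromosome 16, had 1, 0 and 1 counts in the adult libraries and 0, 42 and 14 counts in neonatal replicates 4, 7 and 8, or at most 0.595 CPM. It was too low to be tested in 6 libraries. The ratio of summed neonatal to adult counts, scaled by library size, was 37.8, with an exact Clopper-Pearson interval of 9.99 to 320 that covers counting error only. That interval leaves out the spread among libraries. In the 5 libraries the edgeR adjusted p was 0.0807. Ciita passed the filter on low counts there only through its neonatal libraries, which fixed its direction. At the level of neonatal replicate 7 or 8 the shallow library would have held 1.99 or 0.694 counts, so its 0 counts do not set it apart.

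**Figure D2:**
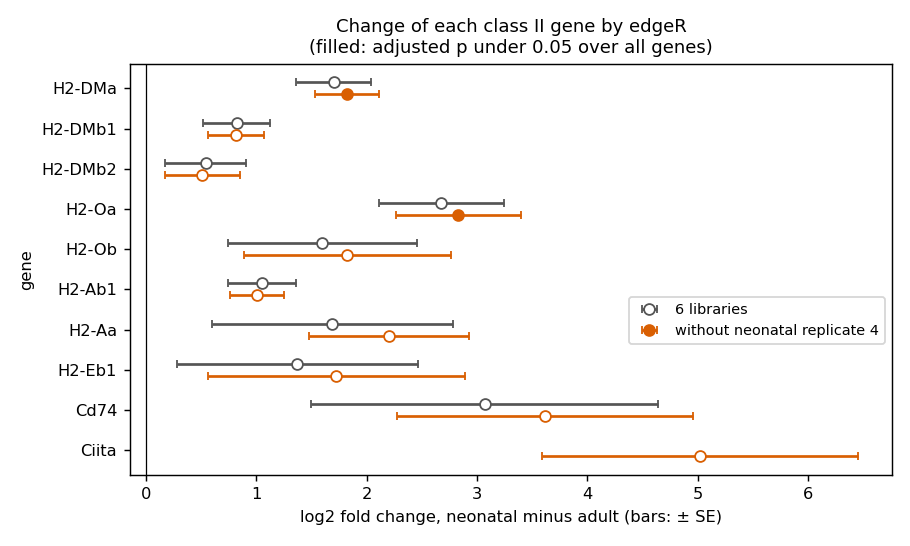
Log2 fold change, neonatal minus adult, of each class II gene with its SE, from the edgeR fits of 6 libraries and of 5 libraries without neonatal replicate 4. All plotted values lie above 0, and the widest errors belong to Cd74 and Ciita, which has only a 5-library value.

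The order of levels can be compared only per length, as CPM per kilobase of exon. In adult LICs H2-DMa averaged 76.2, H2-DMb1 54.5, H2-DMb2 18.6 and H2-Ab1 18.2 CPM per kilobase. Then came H2-Oa at 1.70, H2-Ob at 1.52, H2-Aa at 0.672, Cd74 at 0.476, H2-Eb1 at 0.254 and Ciita at 0.00189. H2-DMa (58.3 to 86.5) and H2-DMb1 (39.6 to 66.0) overlapped over the adult libraries, as did H2-DMb2 with H2-Ab1 and H2-Oa with H2-Ob. In neonatal LICs H2-DMa averaged 248 and H2-DMb1 96.4, H2-Ab1 followed at 37.8 and H2-DMb2 at 27.0, and then H2-Oa at 10.9, H2-Ob at 4.59, Cd74 at 3.88, H2-Aa at 2.05, H2-Eb1 at 0.617 and Ciita at 0.0470. By these means the loading genes stood above the invariant chain and the I-E beta chain in both groups. In neonatal replicate 7 H2-DMb2 was at 29.3 and Cd74 at 11.0 CPM per kilobase.

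Partner genes whose proteins form dimers were not level with each other. H2-Ab1 held 20.7, 31.6 and 34.5 times the level of H2-Aa per length in the adult libraries, at least 48.4 times in neonatal replicate 4, and 9.07 and 18.8 times in neonatal replicates 7 and 8. H2-DMa held 1.005, 1.27 and 2.18 times the level of H2-DMb1 in the adult and 2.11, 3.20 and 2.32 times in the neonatal libraries, so adult replicate 4 overlapped the neonatal range. Between the beta chain genes, the ratio of H2-DMb1 to H2-DMb2 was 2.90, 2.84 and 3.18 in the adult libraries. It was 3.46, 3.59 and 3.67 in the neonatal libraries, so the range was narrow throughout. H2-Oa held 2.63, 0.510 and 4.25 times the level of H2-Ob in the adult and 2.83, 1.36 and 2.83 times in the neonatal libraries. The loading chain exceeded the invariant chain in every library: H2-DMa held 60.1, 228 and 982 times the level of Cd74 in the adult libraries, at least 328 times in neonatal replicate 4, and 30.6 and 321 times in neonatal replicates 7 and 8.

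**Figure D3:**
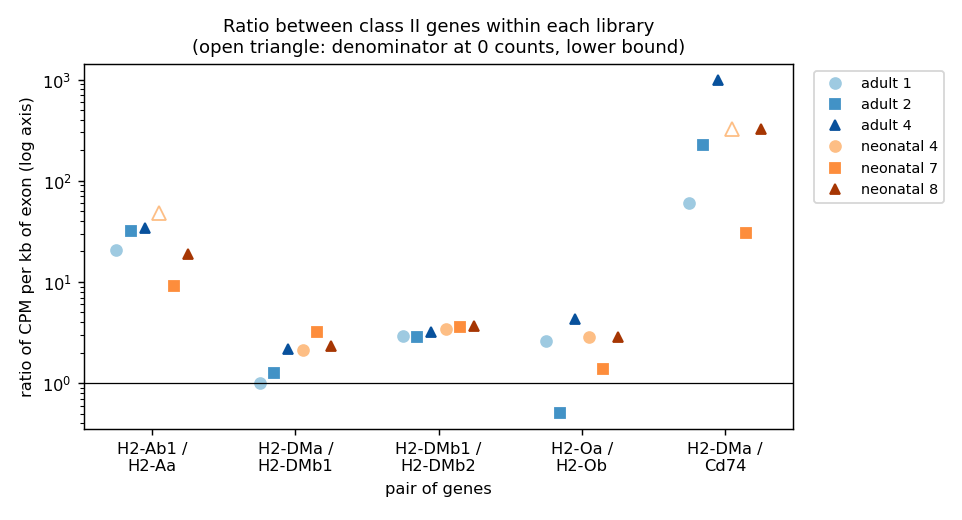
Ratio of CPM per kilobase between pairs of class II genes in every library, on a log axis, with ratios against a count of 0 drawn as lower limits. H2-DMb1 over H2-DMb2 stays between 2.84 and 3.67, whereas H2-DMa over Cd74 runs from 30.6 to 982.

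Neonatal replicate 7 was the highest library for H2-Aa, H2-Eb1, H2-DMa, H2-DMb1, H2-DMb2, Cd74 and Ciita, and neonatal replicate 8 was the highest for H2-Oa and H2-Ob. The ratio of neonatal replicate 7 to 8 was 1.22 for H2-Ab1, 1.23 for H2-DMb1, 1.26 for H2-DMb2 and 1.70 for H2-DMa. It was 2.53 for H2-Aa, 2.87 for Ciita, 6.54 for H2-Eb1 and 17.8 for Cd74. The abundant loading genes were therefore far closer between these libraries than the invariant chain was. Within the adult group the highest library was 11.0 times the lowest for Cd74, 8.43 for H2-Ob and 6.85 for H2-Eb1, and between 1.25 and 2.22 times for the other H2 genes.

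Cells that carry class II as part of their identity were looked for by their markers. Among the B cell markers Ms4a1, Pax5, Blk and Fcmr had 0 counts in all 6 libraries, and the summed level was 29.3 to 69.9 CPM in adult and 72.1 to 147 CPM in neonatal LICs, nearly all of it Cd79b (28.3 to 68.5 and 70.7 to 146 CPM). The 10 conventional dendritic cell markers summed to 12.2 to 46.7 and 10.8 to 14.5 CPM, with Fscn1 at 0 throughout and Clec9a at most 0.313 CPM. The 8 plasmacytoid dendritic cell markers summed to 168 to 254 and 184 to 586 CPM, with the defining receptor Siglech at most 0.0893 CPM. Within that list Tcf4 (21.4 to 72.7 and 98.6 to 521 CPM) was higher and Lair1 (117 to 156 and 20.5 to 113 CPM) lower in every neonatal library.

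The 10 macrophage markers summed to 162 to 732 CPM in adult and 82.6 to 213 CPM in neonatal LICs, and the 9 T and NK cell markers found to at most 2.09 CPM, 5 of them at 0 throughout. The 10 mature neutrophil markers summed to 1844 to 14882 and 79.6 to 292 CPM. The 10 stem and progenitor markers, the labelled source, were detected in every library and summed to 12554 to 23193 and 4918 to 14133 CPM. Most of it came from the granule genes Elane, Mpo and Prtn3, except in neonatal replicate 8. There they were at 726, 60.9 and 412 CPM of the 4918, and Flt3 was the highest of the list at 1230 CPM. Others of that list ran the other way: Cd34 was at 8.16 to 105 CPM in adult and 396 to 662 CPM in neonatal LICs, and Flt3 at 4.58 to 19.3 and 256 to 1230 CPM. Neonatal replicate 7, the highest library for Cd74, had the highest macrophage sum of the neonatal group (213 CPM, against 92.1 and 82.6). It also had that group's highest conventional dendritic cell sum (14.5 CPM, against 10.8 and 12.4), and both lay within the adult range. Most of its macrophage sum was Emr1 (113 CPM) and Vcam1 (88.5 CPM). C1qa, C1qb, C1qc and Cd5l had 0 counts in that library. The part of these marker genes in the class II values was not tested.

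The 8 H2 members lie within 224 kilobases of chromosome 17 (34092379 to 34316674), which hold 13 genes of the table. The other 5 are Brd2, a chromatin reader, Psmb9 and Psmb8, subunits of the immunoproteasome, and Tap1 and Tap2, the peptide transporter of the class I pathway. All 13 had a positive log2 fold change in both fits. In 5 libraries, where 5.98% of all genes were called, Tap1 (1.76, edgeR adjusted p = 0.0360), Psmb8 (1.12, adjusted p = 0.0390) and Tap2 (2.15, adjusted p = 0.0273) rose in neonatal LICs beside H2-DMa and H2-Oa, and Brd2 (0.60, edgeR adjusted p = 0.102) and Psmb9 (0.54, edgeR adjusted p = 0.124) did not pass. In 6 libraries none of the 5 passed, with edgeR adjusted p of 0.471 for Tap1, 0.164 for Psmb8, 0.507 for Tap2, 0.942 for Brd2 and 0.366 for Psmb9. In neonatal replicate 4, left out of the smaller fit, Tap1 (27.2 CPM) and Tap2 (40.9 CPM) lay below every adult library (34.2 to 60.2 and 115 to 169 CPM). Each of these 3 calls was lost in 4 of the 5 fits that left out a further library. A difference between the class II genes and these neighbours was not tested.

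**Figure D4:**
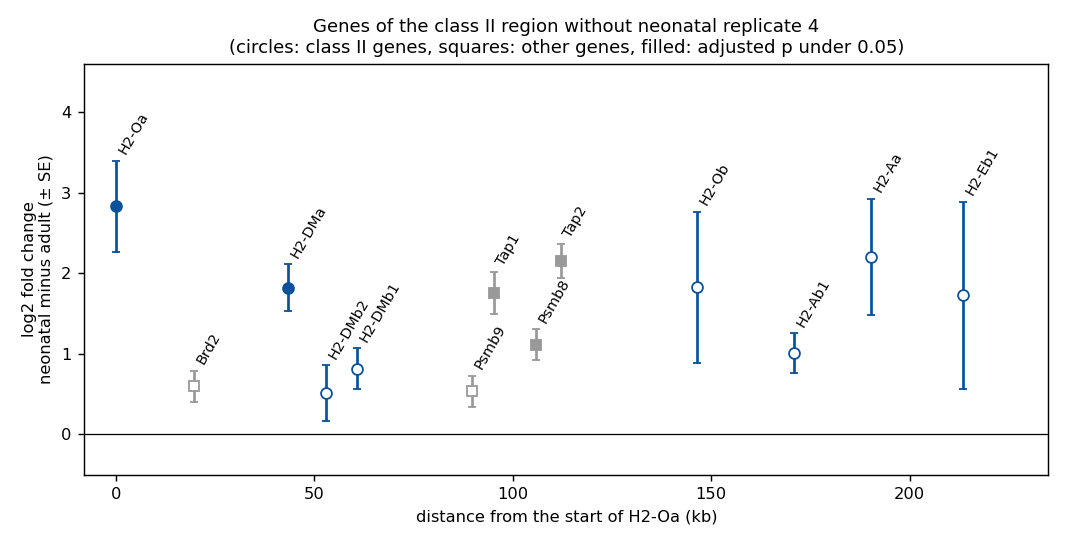
Log2 fold change with SE, neonatal minus adult without neonatal replicate 4, of the 13 genes of the class II region by distance in kilobases from the first gene start, with the 8 class II members and the 5 other genes in separate colours. Every value lies above 0, and the highest are H2-Oa, H2-Aa and Tap2.

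The genes of the proteins that recruit CIITA, and of the enzymes that work with it, gave no call in edgeR. Over all genes tested in 5 libraries, against which the counts of this and the next 3 lists are to be read, edgeR called 5.98%, DESeq2 24.0%, and 29.5% had an unadjusted p under 0.05, and in 6 libraries the shares were 0.0527%, 5.72% and 11.9%. Of 13 class II transcription factor genes all were tested, 0 passed in edgeR's fits of 6 or 5 libraries (1 and 4 at an unadjusted p under 0.05, 1 and 1 in DESeq2, 0 and 0 in limma voom), and their median log2 fold change was 0.01 and 0.17. Rfx5, the DNA-binding subunit of RFX, was at 16.9, 21.5 and 23.8 CPM in the adult and at 12.0, 37.1 and 29.8 CPM in the neonatal libraries. Creb1 was at 87.8, 93.7 and 121 and at 71.7, 63.6 and 72.6 CPM (log2 fold change -0.54, edgeR adjusted p = 0.503, and -0.56, adjusted p = 0.143 in 5 libraries). Kat2b, the acetyltransferase PCAF, was at 18.7, 25.5 and 16.7 and at 10.8, 7.73 and 5.94 CPM, lower in every neonatal library (-1.34, edgeR adjusted p = 0.234, and -1.56, adjusted p = 0.0503 in 5 libraries).

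Genes upstream of Ciita did not pass in edgeR either. Of 17 listed, 13 were tested in 6 and 14 in 5 libraries and 0 passed in edgeR (1 and 5 at an unadjusted p under 0.05, 1 and 3 in DESeq2, 0 and 1 in limma voom), with a median log2 fold change of 0.24 and 0.33. Ifng, the cytokine that induces Ciita in many cell types, and Pax5 had 0 counts in all libraries. Irf8, a transcription factor of monocytes and dendritic cells, was at 31.2, 129 and 66.5 CPM in the adult and at 339, 381 and 288 CPM in the neonatal libraries, without overlap (2.15, edgeR adjusted p = 0.165, and 2.16, adjusted p = 0.0658 in 5 libraries). Irf1, which acts downstream of interferon, was at 31.5, 43.4 and 24.6 and at 35.6, 60.2 and 62.4 CPM (0.67, edgeR adjusted p = 0.532, and 0.90, adjusted p = 0.0916 in 5 libraries). Irf2 was at 11.4, 25.9 and 16.5 and at 18.5, 31.5 and 44.2 CPM (0.82, edgeR adjusted p = 0.546, and 1.09, adjusted p = 0.119 in 5 libraries), and both overlapped between the groups.

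Of 14 endolysosomal processing genes, which make the peptides and trim the invariant chain, 0 passed in 6 libraries (2 at an unadjusted p under 0.05, 1 in DESeq2, 0 in limma voom, median 0.45). In 5 libraries 3 of 14 rose and 0 fell in edgeR (5.98% of all genes called), with a median log2 fold change of 0.59. Of the 14, 6 had an unadjusted p under 0.05, DESeq2 called 5 and limma voom 3. Ifi30, the lysosomal thiol reductase that opens disulfide bonds for class II peptides, was at 9.77, 25.6 and 10.1 CPM in the adult and at 128, 102 and 74.0 CPM in the neonatal libraries (2.55 ± 0.47, edgeR adjusted p = 0.0415 in 5 libraries, and 2.74, adjusted p = 0.140 in 6). Tfeb, the regulator of lysosome genes, was at 14.6, 17.2 and 16.9 and at 8.97, 39.4 and 42.1 CPM (1.34 ± 0.22, edgeR adjusted p = 0.0365 in 5 libraries, and 0.91, adjusted p = 0.579 in 6). Psap, the precursor of the saposins, was at 208, 142 and 195 and at 62.5, 631 and 473 CPM (1.61 ± 0.23, edgeR adjusted p = 0.0360 in 5 libraries, and 1.10, adjusted p = 0.609 in 6). Ifi30 was high in all 3 neonatal libraries, whereas Tfeb and Psap were lowest of all in neonatal replicate 4.

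Of 13 trafficking and turnover genes 0 passed in 6 libraries (3 at an unadjusted p under 0.05, 2 in DESeq2, 0 in limma voom, median 0.01). In 5 libraries 0 rose and 1 fell in edgeR, with a median of -0.12 (6 at an unadjusted p under 0.05, 6 in DESeq2, 3 in limma voom). The gene that fell was March8, a ubiquitin ligase of the family that removes class II from the surface, at 36.8, 37.5 and 36.4 CPM in the adult and at 2.99, 15.6 and 9.95 CPM in the neonatal libraries (-1.52 ± 0.28, edgeR adjusted p = 0.0415 in 5 libraries, and -1.91, adjusted p = 0.217 in 6). Its adult values were nearly equal and its highest neonatal value lay far under them. March1, the ligase best known for class II in dendritic cells, was chosen after its values were seen and was at 15.2, 4.90 and 0.825 and at 0.598, 1.13 and 0.741 CPM. The calls of Tfeb, Psap and March8 were lost in 4 and that of Ifi30 in 3 of the 5 fits that left out a further library.

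The genes whose pattern over the 6 libraries was most like that of H2-DMa, by the root mean square difference of centred log2(CPM + 0.5) among 9750 genes, were Crtap (0.199), Cd68 (0.221) and Pcp4l1 (0.266). Those most like H2-Ab1 were H2-T23 (0.126), H2-DMb1 (0.126) and Ak3 (0.135), of which H2-DMb1 is itself a member.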

How the data were processed

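Read counts per gene were deposited by the authors. Per the file headers, featureCounts v1.5.1 assigned primary alignments to the genes of a UCSC mm10 annotation, and no strand setting was given. Trimmomatic, Bowtie, TopHat and DESeq2 are named, versions not given, in the submitters' processing notes. Per the labels' protocols reads were 75-base single-end. Gene coordinates are those of the count table.

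Adult and neonatal libraries were compared over all genes with edgeR 4.0.16 in R 4.3.3 (filterByExpr with a minimum count of 10, TMM, robust quasi-likelihood F test, Benjamini-Hochberg threshold 0.05), after testing on simulated data. In simulated data of 6 libraries, 0 of 50 genes changed by 1 on the log2 scale were called. Of 50 changed by 2, 13 were called, and there were 2 false calls. Without neonatal replicate 4 these counts were 3, 25 and 12. The SE is the absolute log2 fold change divided by the square root of F. CPM use TMM-scaled library sizes, and the floor for a count of 0 is 3 counts (95% confidence, counting error only). Alternatives were DESeq2 1.42.0, limma 3.58.1 voom, other scalings and filters, thinning, and leaving out libraries. The 10 members and the lists were chosen with earlier results of these data known. Named genes were all members, list members called in either fit or otherwise up to 3 with the smallest p, all genes of the class II region, and the 3 genes most like H2-DMa and H2-Ab1. March1 and March8, stored as dates, were matched by position, and Spi1, Sppl2a, Arl14ep and Fcmr by synonym. Trac was not matched, and 1 B cell marker is not reported here.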

Additional observations from a re-analysis of the deposited data

How the results depend on the processing

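Over the alternatives run on 6 libraries and those leaving out 1 library, the members other than Ciita gave 137 log2 fold changes. Of these, 135 were positive and 14 passed the threshold. All are refits of the same libraries and not independent of each other. The 2 negative ones came without neonatal replicate 7: leaving out one library gave -0.29 to 1.80 for H2-Eb1 and -0.32 to 4.15 for Cd74. H2-Eb1 without neonatal replicate 4 and a further library, a choice made after seeing the data, gave -0.17 to 2.52, and Cd74 gave 0.40 to 4.67. In place of the 7 genes called by edgeR, DESeq2 called 759, limma voom with library quality weights 1056, and DESeq2 without neonatal replicate 4 3320, and edgeR without any one library 1 to 828. In place of 0 members, these called 3, 3, 6 and 0 to 2. Without neonatal replicate 4, in place of 2 members DESeq2 called 6, limma voom 1, and edgeR without a further library 0 to 2. The cause was not tested. No paired analysis was made because the labels state no pairing between adult and neonatal libraries. The depth of neonatal replicate 4 limits what its counts of 0 show for Ciita, Cd74 and H2-Aa, and what its 1 count shows for H2-Eb1.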
